A study of Mus musculus with 5 samples.

Results

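Mnx1 and Nom1 are neighbouring genes at the far end of the Sonic hedgehog (Shh) locus, beyond Lmbr1 as seen from Shh, and their chromatin contacts were followed across 6 capture Hi-C maps of E10.5 mouse limb buds. Each gene was taken as a viewpoint made of its own 5 kb bins and 1 bin on either side. The Mnx1 viewpoint held 4 bins (chr5:29465001-29485000) and the Nom1 viewpoint 7 bins (chr5:29425001-29460000), of 558 bins in the map, and the 5 kb gap between them belonged to neither. Partners were all measured bins at 20 kb or more, which came to 538 bins for Mnx1 and 535 for Nom1. Of 21 protein-coding genes lying wholly in the map, these 2 are the members, and 13 listed genes including them are named below by their place on the chromosome. Per the labels, 5 homozygous mutant genotypes were sampled with 1 library each. Embryos of intraTAD2, intraTAD3 and intraTAD2-i4CTCF came from mating. Those of intraTAD2-2xBorCTCF and intraTAD2-1xBorCTCF were made by tetraploid aggregation, a method that builds an embryo from embryonic stem cells on a tetraploid host. The 3 names that extend intraTAD2 are shortened to i4CTCF, 2xBorCTCF and 1xBorCTCF. The remaining map is named wild type, belongs to no sample of the series and is given as the authors' value. Its embryos were not described further, and GEO types the series partly as third-party reanalysis. The sequence change of each allele is not given in the sources used here, so genotypes are called by name. A contact map holds no expression, so the tissue label could not be set against marker genes.

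Mnx1 encodes a homeodomain transcription factor known for its roles in motor neurons and the pancreas. Nom1 encodes a nucleolar protein with a MIF4G domain. Mammalian chromosomes fold into topologically associating domains, stretches whose sequences touch each other more often than sequences outside, and CTCF is a DNA-binding protein found at many of their borders. Shh and its limb enhancer, which lies inside Lmbr1, share such a domain. Mnx1 and Nom1 lie outside it on the Lmbr1 side, and En2, which encodes a homeodomain factor of the midbrain and hindbrain boundary, lies outside it on the Shh side.

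Mnx1 (chr5:29473823-29478470, minus strand) and Nom1 (chr5:29434659-29452169, plus strand) are 21.7 kb apart in RefSeq's GRCm38.p6 annotation (the mm10 build). The 250 bases upstream of each start, as the promoter table places it, are shown because the genes are close neighbours whose contacts differed. They are written 5′ to 3′ on the gene's own strand, from RefSeq with build GRCm38.p6, at chr5:29478471-29478720 for Mnx1 and chr5:29434417-29434666 for Nom1, and capitals mark each CG dinucleotide.
Mnx1: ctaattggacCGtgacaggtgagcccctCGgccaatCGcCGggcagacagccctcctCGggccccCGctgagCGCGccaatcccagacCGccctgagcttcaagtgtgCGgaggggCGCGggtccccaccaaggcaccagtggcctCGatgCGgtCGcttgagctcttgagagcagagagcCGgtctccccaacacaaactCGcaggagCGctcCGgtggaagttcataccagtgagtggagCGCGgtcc
Nom1: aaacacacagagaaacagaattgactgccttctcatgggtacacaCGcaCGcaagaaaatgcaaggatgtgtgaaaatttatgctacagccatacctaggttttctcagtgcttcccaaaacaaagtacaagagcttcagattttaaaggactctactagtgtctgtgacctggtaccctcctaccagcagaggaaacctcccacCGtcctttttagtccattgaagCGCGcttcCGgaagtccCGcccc
Mnx1 holds 21 CG in this window and Nom1 holds 7, beside a median of 6 over 32851 upstream windows of the same length. Fewer CG than in Mnx1 were counted in 83.7% of those windows, and fewer than in Nom1 in 53.7%. The G and C content was 66.4% for Mnx1 and 47.2% for Nom1. Neither sequence contains GATC, the palindromic site at which the DpnII used for these libraries cuts, while 41.9% of upstream windows contain it.

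Maps held 1121373 (2xBorCTCF) to 2942790 (intraTAD2) recovered contacts, with 1646616 in wild type. The Mnx1 viewpoint had 9467 (2xBorCTCF) to 27327 (intraTAD2) contacts, with 15106 in wild type, and the Nom1 viewpoint 17625 to 50977 in the same maps, with 29279 in wild type. Relative to the other bins of its map, a Mnx1 bin held 1.12 to 1.26 times the average number of contacts and a Nom1 bin 1.21 to 1.30 times, so neither was thinly covered. Contacts are given as distance-normalised values, with 1 standing for the average of that map at the distance in question. With 1 library per genotype no test was possible. Intervals are 95% intervals of counting error alone and say nothing of the spread between embryos, and "beyond counting error" below means that the interval of a ratio did not hold 0 on the log2 scale. Each map averages all cells of the limb buds.

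Mnx1 touched En2 more than any other listed gene in all 6 maps, over 1301.6 kb and across the whole Shh domain. The Mnx1 to En2 contact was 10.7 in wild type (95% interval 9.90 to 11.5, 718 contacts), while intraTAD2 had 8.06, intraTAD3 8.75, i4CTCF 12.2, 2xBorCTCF 5.54 and 1xBorCTCF 8.98, in distance-normalised contact. The i4CTCF map was the highest and the 2xBorCTCF map the lowest. Even the lowest value, 5.54 from 178 contacts, had an interval of 4.70 to 6.38, far above the average of 1. Among 291 pairs of windows of the same sizes and separation, Mnx1 to En2 ranked first in all 6 maps, and the median of those pairs was 0.747 to 0.927. The pair stood above its own surroundings too. In wild type En2 was contacted 2.41 times as strongly as the 50 kb on either side of it, and in the mutant maps 2.09 (2xBorCTCF) to 2.52 (i4CTCF) times.

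**Figure D1:**
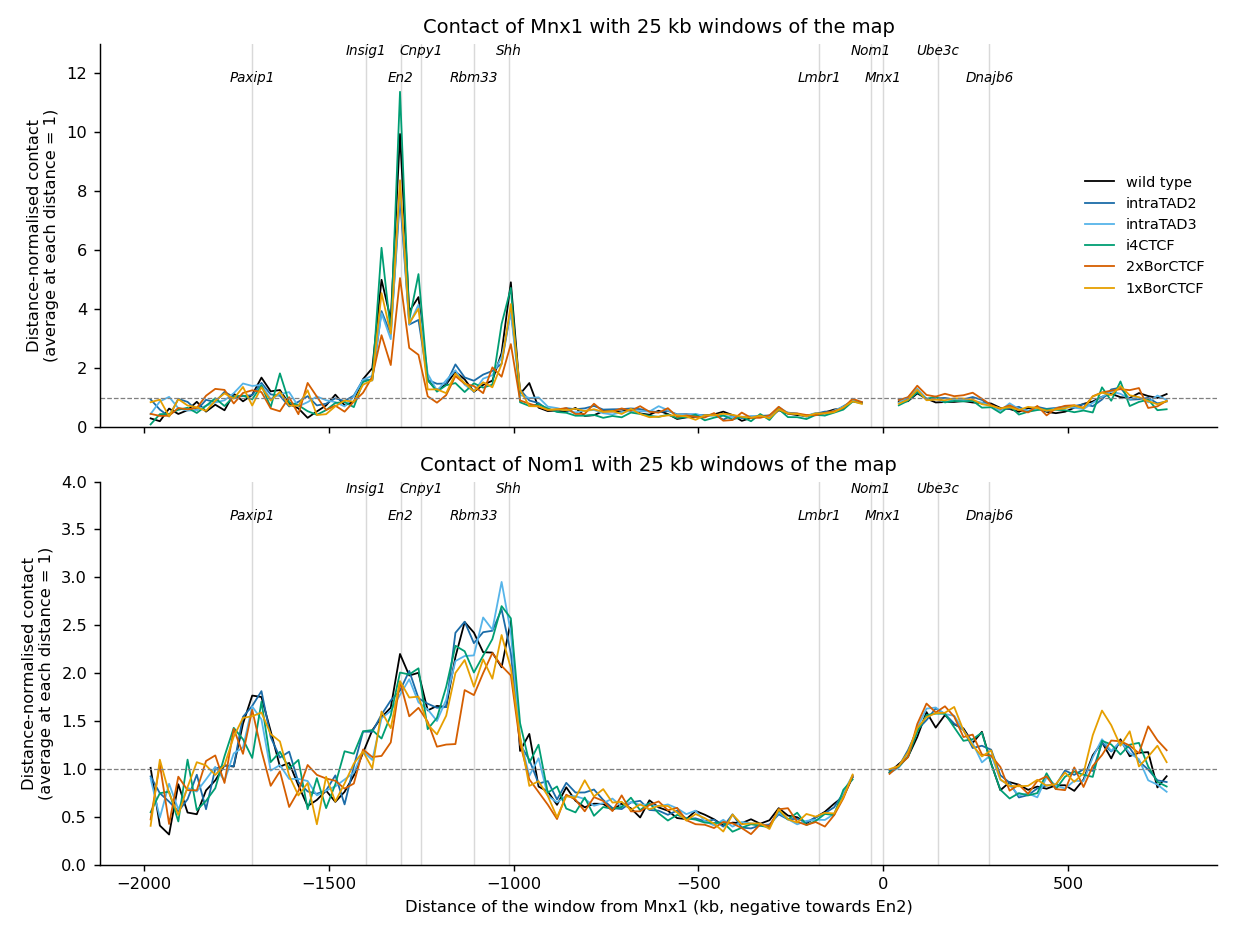
Distance-normalised contact (vertical axis, 1 is the average at each distance) of Mnx1 (upper panel) and Nom1 (lower panel) with 25 kb windows along the map, by distance from Mnx1 in kb (horizontal axis), with 1 line per map and grey lines at gene centres. Mnx1 shows a narrow peak at En2 that reached 5.06 in 2xBorCTCF and 11.4 in i4CTCF and smaller ones beside it and at Shh, while Nom1 shows a broad rise over Rbm33 and Shh that stayed below 3 in all 6 maps.

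The En2 contact was narrow at the Mnx1 end, as the plot by 5 kb bin shows. In wild type the 4 bins of the Mnx1 viewpoint gave 7.04, 14.5, 11.1 and 10.1 with En2, from the Nom1 side to the Ube3c side. In i4CTCF they gave 9.53, 16.5, 11.1 and 11.6, and in 2xBorCTCF 2.52, 6.62, 7.13 and 5.88. The gene itself lies in the middle pair of these bins, and the highest value of each map was in one of that pair. The next bin towards Ube3c, outside the viewpoint, still gave 5.06 (2xBorCTCF) to 7.96 (wild type), and the one after it 3.80 (intraTAD2) to 5.76 (wild type). In the gap towards Nom1 the En2 contact was 3.20 (2xBorCTCF) to 4.81 (i4CTCF). In the Nom1 viewpoint's bin beside the gap it was 1.96 (intraTAD2) to 3.67 (wild type). Over the 4 bins of chr5:29435001-29455000 in Nom1 it was 1.34 to 3.09. The first Mnx1 bin was the lowest of the 4 in all 6 maps, and in 2xBorCTCF it rested on 17 contacts.

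**Figure D2:**
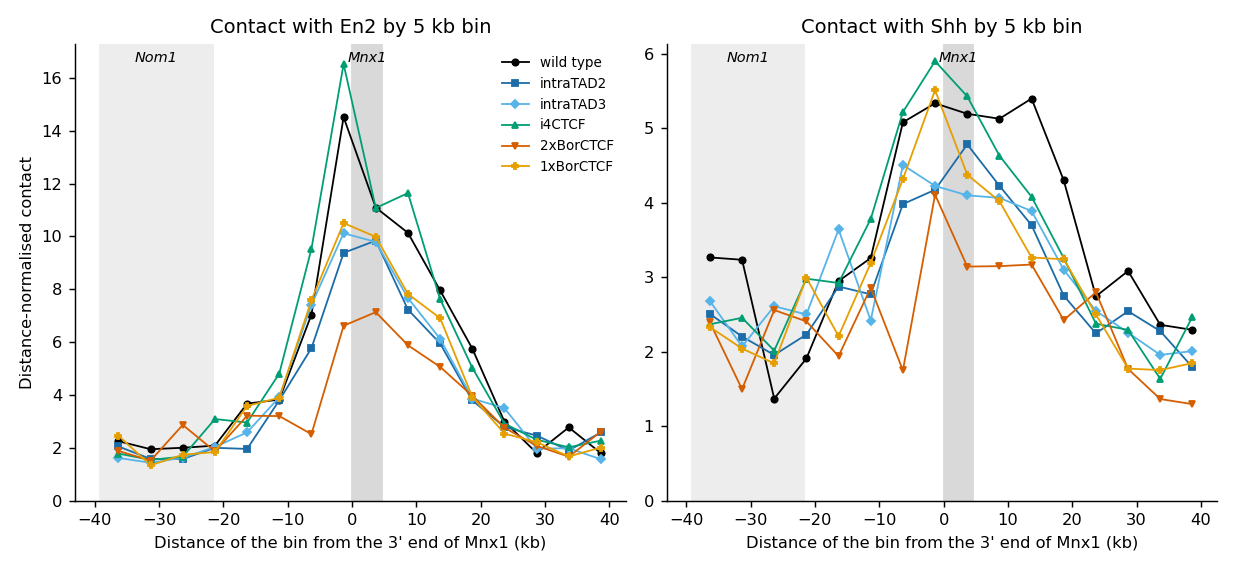
Distance-normalised contact (vertical axis) of single 5 kb bins with the En2 window (left) and the Shh window (right), by distance in kb of the bin's centre from the 3' end of Mnx1 (horizontal axis), with 1 line per map and the Mnx1 and Nom1 genes shaded. The En2 contact peaks at Mnx1 in every map, at 16.5 in i4CTCF and 7.13 in 2xBorCTCF, and the Shh contact is wider, with 2xBorCTCF at or near the bottom of the 6 lines over the Mnx1 bins.

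At the En2 end, the 3 highest of 506 partner bins of Mnx1 by the mean of the 6 maps were adjacent. They were chr5:28165001-28170000 in En2 with 10.8 (6.11 in 2xBorCTCF to 15.3 in i4CTCF), chr5:28170001-28175000 in En2 with 10.1, and chr5:28160001-28165000, which holds no gene, with 9.01. The single strongest bin pair between Mnx1 and En2 used the first of these partner bins in all 6 maps. Among 102 tiled windows of 25 kb at 100 kb or more, the window over En2 (chr5:28155001-28180000) came first for Mnx1. The second was chr5:28105001-28130000, which holds no protein-coding gene. Its contact with Mnx1 was 5.00 in wild type, while intraTAD2 had 3.94, intraTAD3 3.86, i4CTCF 6.09, 2xBorCTCF 3.12 and 1xBorCTCF 4.55. As at En2, i4CTCF was the highest map at this window and 2xBorCTCF the lowest. Windows over Shh, with a mean of 4.08, and over Cnpy1, with 3.98 and 3.45, completed the 5 highest.

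Shh was the second listed partner of Mnx1 in each map. The Shh protein is a secreted morphogen of the early limb bud, and its gene lies 1006.7 kb from Mnx1. The distance-normalised contact of Mnx1 with Shh was 5.18 in wild type, while intraTAD2 had 4.29, intraTAD3 4.23, i4CTCF 5.30, 2xBorCTCF 3.04 and 1xBorCTCF 4.56. Among 348 window pairs of that geometry it ranked first in 4 maps and 2 in i4CTCF and 2xBorCTCF. Its contrast with the 50 kb on either side, 2.23-fold in 2xBorCTCF to 3.42-fold in 1xBorCTCF, stood beside 2.09-fold to 2.52-fold at En2.

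The other genes on the En2 side made less contact with Mnx1. Cnpy1, whose product acts in FGF signalling, gave 3.22 in wild type, while intraTAD2 had 2.78, intraTAD3 3.04, i4CTCF 3.49, 2xBorCTCF 1.93 and 1xBorCTCF 2.78. Insig1, which encodes a membrane protein of the endoplasmic reticulum that restrains cholesterol synthesis, gave 2.15, 1.59, 1.89, 2.04, 1.58 and 1.38 in the same order. Rbm33, an RNA-binding protein gene that lies nearer to Mnx1 than En2 does, gave only 1.52, 1.80, 1.59, 1.36, 1.52 and 1.51. The order of Mnx1 partners on this side was therefore not that of distance. Paxip1, which encodes a chromatin protein of the DNA damage response, gave 1.06 to 1.46, and the serotonin receptor gene Htr5a gave 0.74 to 1.30.

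Nom1 was also above the average with En2, Shh and Rbm33 in all 6 maps. With En2 and Shh its values were lower than those of Mnx1, and with Rbm33 they were higher. Its contact with En2, over 1262.5 kb, was 2.31 in wild type, while intraTAD2 had 1.78, intraTAD3 1.79, i4CTCF 2.08, 2xBorCTCF 2.06 and 1xBorCTCF 2.05, which ranked it between 10 and 25 of 289 window pairs of the same geometry. With Shh, 967.56 kb away, Nom1 gave 2.67, 2.46, 2.76, 2.76, 2.32 and 2.31, ranking 11 to 21 of 348. With Rbm33 it gave 2.33, 2.47, 2.31, 2.202, 1.80 and 2.03, ranking 1 to 15 of 323. The contact of Nom1 was thus spread over a stretch from Rbm33 to Shh. The 10 highest of 504 partner bins of Nom1 all lay between chr5:28335001 and chr5:28470000, and the highest window of 25 kb, chr5:28430001-28455000 between Rbm33 and Shh, had a mean of 2.48. Against the 50 kb on either side, En2 was contacted by Nom1 0.995 (intraTAD2) to 1.47 (2xBorCTCF) times as strongly, and Shh 1.28 (intraTAD2) to 1.52 (wild type) times. Cnpy1 gave 1.54 to 1.83 with Nom1, Paxip1 1.44 to 1.74, Insig1 1.11 to 1.71 and Htr5a 0.827 to 1.24.

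Between Shh and the members both profiles ran below average. Lmbr1, a membrane protein gene, is the nearest gene to Nom1 on that side at 56.2 kb, and is 95.4 kb from Mnx1. Its contact with Mnx1 was 0.501 in wild type, while intraTAD2 had 0.514, intraTAD3 0.512, i4CTCF 0.428, 2xBorCTCF 0.512 and 1xBorCTCF 0.501. With Nom1 the values were 0.557, 0.557, 0.532, 0.548, 0.503 and 0.555, which ranked 5 to 30 from the lowest of 505 window pairs of the same geometry. All 12 values were well below the average, the lowest being that of Mnx1 in i4CTCF. Within maps, Lmbr1 was contacted less by Mnx1 than by Nom1 beyond counting error in wild type (log2 ratio -0.15), intraTAD2 (-0.11), i4CTCF (-0.36) and 1xBorCTCF (-0.15), and the intervals of intraTAD3 and 2xBorCTCF held 0. Rnf32, a RING finger gene beside Lmbr1, gave 0.452 to 0.560 with Mnx1 and 0.494 to 0.567 with Nom1. The 3 lowest of the 102 windows were the same for both members, chr5:29080001-29105000, chr5:29105001-29130000 and chr5:29155001-29180000, all inside the Shh domain and holding no protein-coding gene. Their means were 0.315 to 0.346 for Mnx1 and 0.410 to 0.411 for Nom1.

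On the other flank the members met Ube3c, a ubiquitin ligase gene, and Dnajb6, a chaperone gene. Ube3c gave 0.933 in wild type, while intraTAD2 had 1.00, intraTAD3 1.01, i4CTCF 0.982, 2xBorCTCF 1.13 and 1xBorCTCF 0.994 with Mnx1. With Nom1, which is farther from it, Ube3c gave 1.49, 1.53, 1.57, 1.503, 1.60 and 1.57. Dnajb6 gave 0.637 to 0.790 with Mnx1 and 1.07 to 1.16 with Nom1. Between 20 and 300 kb, Nom1 had 2.31 (wild type) to 2.44 (2xBorCTCF) times as much distance-normalised contact towards Ube3c as towards Lmbr1. For Mnx1 the same ratio was 1.49 (wild type) to 1.69 (2xBorCTCF). Both members thus leaned away from the Shh domain at short range in each map, and with each other they gave 0.888 to 0.947, just below the average for their distance.

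**Figure D3:**
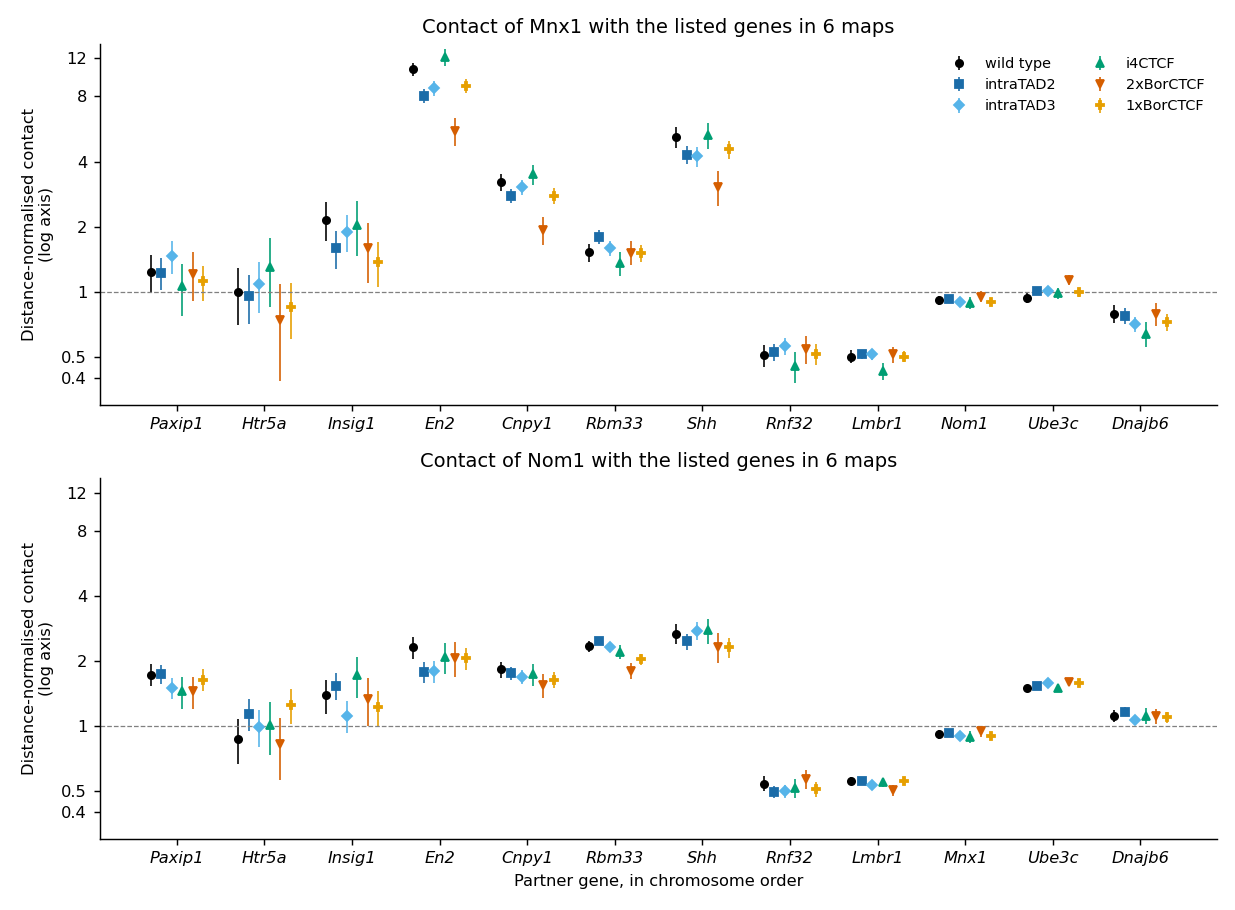
Distance-normalised contact (vertical log axis, dashed line at the average of 1) of Mnx1 (upper panel) and Nom1 (lower panel) with the 12 other listed genes in chromosome order (horizontal axis), with 1 marker per map and bars for the 95% interval of counting error. Mnx1 spans from 0.428 at Lmbr1 to 12.2 at En2, while Nom1 stays between 0.494 at Rnf32 and 2.76 at Shh.

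Mnx1 and Nom1 were set against each other inside each map, where both come from the same library. En2 was contacted more by Mnx1 in every map, 4.64-fold in wild type, 4.52-fold for intraTAD2, 4.90-fold for intraTAD3, 5.86-fold for i4CTCF, 2.69-fold for 2xBorCTCF and 4.37-fold for 1xBorCTCF. For Shh the log2 ratio of Mnx1 to Nom1 was 0.96, 0.81, 0.61, 0.94, 0.39 and 0.98, and for Cnpy1 it was 0.82, 0.67, 0.85, 1.01, 0.32 and 0.77. Both genes too were closer to the Nom1 value in 2xBorCTCF than in the other 5 maps. Rbm33 went the other way, with log2 ratios of -0.62, -0.46, -0.54, -0.70, -0.25 and -0.43, as did Ube3c with -0.49 to -0.68 and Dnajb6 with -0.49 to -0.81. Of 11 partner genes, Mnx1 was higher beyond counting error for 4 and Nom1 for 5 in wild type, which makes 81.8% beside 26.6% of neighbouring windows of the same size and separation elsewhere in the map. The counts were 3 and 5 in intraTAD2 (72.7% beside 33.8%), 5 and 3 in intraTAD3 (72.7% beside 33.8%), 3 and 4 in i4CTCF (63.6% beside 24.9%), 3 and 3 in 2xBorCTCF (54.5% beside 22.3%) and 3 and 6 in 1xBorCTCF (81.8% beside 29%). The members' share was above that of the map in each case.

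Each mutant map was then compared with wild type. These 5 comparisons share the wild-type map, and in all of them genotype and origin of the library cannot be told apart. The largest difference among the listed genes was at En2 in 2xBorCTCF, where the Mnx1 contact of 5.54 was 1.93-fold lower than the 10.7 of wild type (log2 ratio -0.95, 95% interval -1.19 to -0.71). That ratio ranked 3 from the lowest of 248 window pairs of the same geometry. With Shh the 2xBorCTCF contact of Mnx1 was 1.71-fold lower (log2 ratio -0.77, interval -1.08 to -0.46), a ratio that ranked 12 from the lowest of 327. With Cnpy1 it was 1.67-fold lower (-0.74, interval -0.99 to -0.49), a ratio that ranked 4 from the lowest of 294. Rbm33, lying between Cnpy1 and Shh, was contacted by Mnx1 at 1.52 in both maps. With Ube3c the Mnx1 contact was higher in 2xBorCTCF (log2 ratio 0.28, interval 0.17 to 0.39). Of 12 partner genes of Mnx1, 1 was higher and 3 lower, or 33.3%, beside 16.5% of window pairs of the same geometry in these maps.

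The other mutant maps had Mnx1 to En2 ratios nearer to 0. In intraTAD2 the En2 contact was lower by a log2 ratio of -0.41 (interval -0.56 to -0.26), which ranked only 31 from the lowest of 282. Shh (-0.27), Cnpy1 (-0.21) and Insig1 (-0.44) were also lower, and Rbm33 (0.24) and Ube3c (0.10) higher, so that 6 of 12 genes differed, or 50%, beside 13.2% of window pairs. The Shh interval of intraTAD2 held 0 with gene bins alone (-0.23, interval -0.54 to 0.07), and those of Insig1 and Rbm33 without the first Mnx1 bin. Over bin pairs listed in all maps those of Insig1 and Cnpy1 (-0.12, interval -0.29 to 0.05) held 0. Without balancing and with gene bins alone those of Rbm33 and Ube3c held 0. Rbm33 did so too when scaled by the map total, and Ube3c with 2 bins either side. Only En2 stayed beyond counting error under every setting that gives an interval. In intraTAD3 the En2 log2 ratio was -0.29 (interval -0.44 to -0.14), which ranked 59 from the lowest of 283. The Shh ratio was -0.30, and Ube3c was higher at 0.12, making 3 of 12, or 25%, beside 16.4%. The Ube3c interval held 0 without balancing, with gene bins alone and with 2 bins either side. In 1xBorCTCF the En2 ratio was -0.25 (interval -0.41 to -0.10), which ranked 61 from the lowest of 280. The Cnpy1 ratio was -0.21 and the Insig1 ratio -0.64, again 3 of 12, beside 13.9%. Against the median of the other maps the En2 ratio was 0.04 instead. Its interval held 0 without balancing (-0.13, interval -0.28 to 0.02) and over bin pairs listed in all maps (-0.14, interval -0.29 to 0.01). The Cnpy1 interval held 0 under the same settings (-0.05 and -0.17). In i4CTCF the Mnx1 to En2 contact was higher by 0.19 (interval 0.02 to 0.36), which ranked 179 from the lowest of 254, and it turned to -0.04 when contacts were scaled by the map total. This interval also held 0 without the first Mnx1 bin (0.13, interval -0.05 to 0.32) and with gene bins alone (0.11, interval -0.12 to 0.33). Lmbr1 (-0.23) and Dnajb6 (-0.31) were lower with Mnx1 in i4CTCF, making 3 of 12 beside 11.4%. The Dnajb6 interval held 0 without balancing (-0.21) and over bin pairs listed in all maps (-0.22). At the distance of En2 the average contact itself was lower than wild type by a log2 ratio of -0.10 (1xBorCTCF) to -0.39 (intraTAD3) on the scale of map totals, and all ratios here are relative to that average. En2 with Shh, a pair of neither member, differed from wild type too. Its log2 ratio was -0.40 in intraTAD2 (interval -0.58 to -0.22), -0.28 in intraTAD3 (interval -0.47 to -0.09) and -0.32 in 2xBorCTCF (interval -0.57 to -0.06). It was 0.32 in i4CTCF (interval 0.11 to 0.53) and 0.30 in 1xBorCTCF (interval 0.12 to 0.48).

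**Figure D4:**
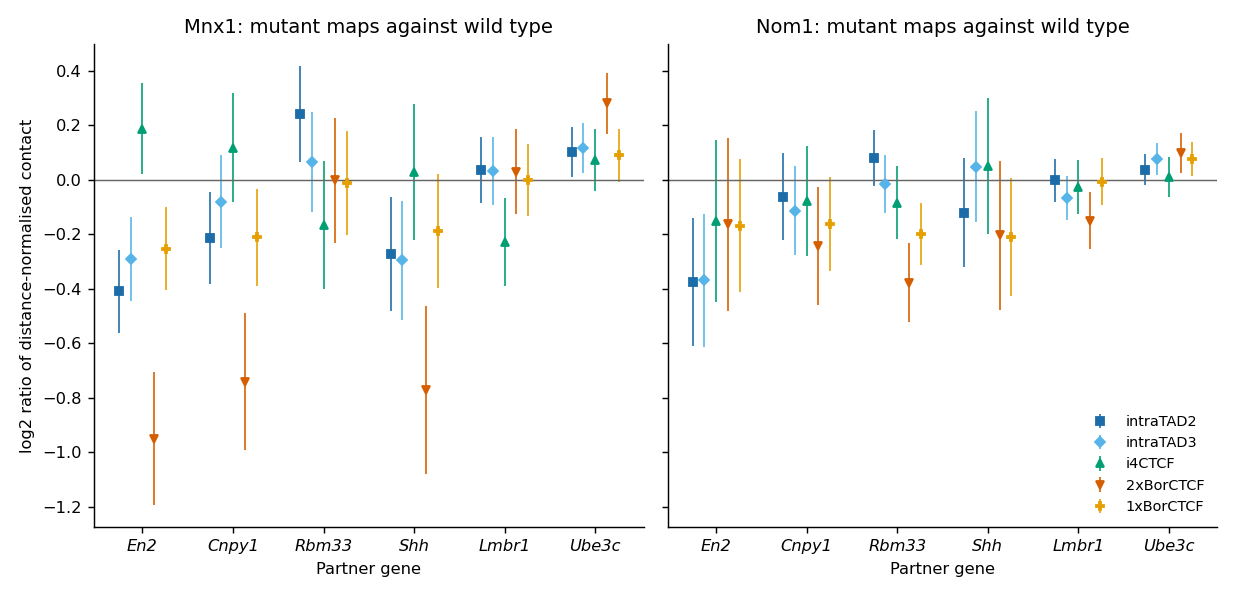
Log2 ratio of distance-normalised contact in each mutant map to wild type (vertical axis) for Mnx1 (left) and Nom1 (right) with 6 partner genes (horizontal axis), with bars for the 95% interval of counting error. For Mnx1 the 2xBorCTCF values at En2, Cnpy1 and Shh lie at -0.95, -0.74 and -0.77, below the other 4 mutant maps, while for Nom1 no value lies below -0.38.

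The Nom1 to Shh contact of each mutant map was within counting error of wild type, with log2 ratios between -0.21 and 0.05. Nom1 to En2 was lower in intraTAD2 (log2 ratio -0.37, interval -0.61 to -0.14) and intraTAD3 (-0.37, interval -0.61 to -0.12), and it had intervals holding 0 in the other 3. The intraTAD2 interval held 0 with gene bins alone (-0.25, interval -0.54 to 0.03). Nom1 to Rbm33 was lower in 2xBorCTCF, at 1.80 against 2.33 (log2 ratio -0.38, interval -0.52 to -0.23), and in 1xBorCTCF, at 2.03 (-0.20, interval -0.31 to -0.08). Beside it, Ube3c gave 1.61 and 1.67 with Rbm33 in those 2 maps and 1.74 to 1.91 in the other 4, so Ube3c too was at its lowest with Rbm33 in the BorCTCF maps. Nom1 to Ube3c was slightly higher in intraTAD3 (0.08), 2xBorCTCF (0.10) and 1xBorCTCF (0.08). On whole contacts without balancing the 3 ratios were -0.02, 0.02 and 0.05, and each interval held 0. Each also held 0 when scaled by the map total. Lmbr1 (-0.15) and Cnpy1 (-0.24) were lower with Nom1 in 2xBorCTCF, and Htr5a higher in 1xBorCTCF (0.52, interval 0.09 to 0.95). The Lmbr1 interval held 0 with gene bins alone (-0.10, interval -0.22 to 0.02), and that of Cnpy1 over bin pairs listed in all maps (-0.21, interval -0.43 to 0.01). That of Htr5a held 0 without balancing, with gene bins alone, with 2 bins either side and over bin pairs listed in all maps. Of 12 partner genes, 1 differed in intraTAD2 (8.33% beside 15.2% of window pairs), 2 in intraTAD3 (16.7% beside 20.1%), 0 in i4CTCF (beside 13.5%), 4 in 2xBorCTCF (33.3% beside 21.1%) and 3 in 1xBorCTCF (25% beside 16.2%). Those shares lay on both sides of the background. Over both members and all 8 comparisons, each of 12 partner genes, 47 gene ratios were beyond counting error. The share per member and comparison ran from 0% to 50%, beside 11.4% to 21.4% of window pairs of the same geometry. Of the 47, 19 stayed so under every alternative setting that gives an interval, and no background was computed for this count.

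The 3 genotypes whose names extend intraTAD2 were compared with it. They share the intraTAD2 map, and for 2xBorCTCF and 1xBorCTCF the genotype and the source of the embryos cannot be told apart. In i4CTCF, which shares the mating origin, Mnx1 touched En2 1.51-fold more than in intraTAD2, 12.2 against 8.06 (log2 ratio 0.60, interval 0.43 to 0.76), the 18th highest of 256 window pairs of the same geometry. Cnpy1 (0.33, interval 0.14 to 0.52) and Shh (0.30, interval 0.07 to 0.54) were also higher with Mnx1. Over bin pairs listed in all maps, however, the intervals of Cnpy1 (0.07, interval -0.12 to 0.27) and Shh (0.16, interval -0.07 to 0.40) held 0. Rbm33 (-0.41, interval -0.62 to -0.19), Lmbr1 (-0.27, interval -0.41 to -0.12) and Dnajb6 (-0.28, interval -0.50 to -0.05) were lower. The Dnajb6 interval held 0 without balancing (-0.07, interval -0.27 to 0.13) and over bin pairs listed in all maps (-0.16, interval -0.39 to 0.06). The Lmbr1 ratio ranked 4 from the lowest of 485. In all, 6 of 12 genes differed for Mnx1, or 50%, beside 13.5% of window pairs, and 1 of 12 for Nom1, or 8.33%, beside 15%.

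In 2xBorCTCF the Mnx1 to En2 contact was lower than in intraTAD2 by a log2 ratio of -0.54 (interval -0.78 to -0.30), the 19th lowest of 251. Cnpy1 (-0.53), Shh (-0.50) and Rbm33 (-0.24) were lower with Mnx1 too, and Ube3c higher (0.18), giving 5 of 12 genes, or 41.7%, beside 14.5%. The Shh interval held 0 with gene bins alone (-0.30, interval -0.71 to 0.10). That of Rbm33 held 0 over bin pairs listed in all maps, and that of Ube3c with gene bins alone and scaled by the map total. For Nom1 the Rbm33 ratio of -0.46 (interval -0.60 to -0.32) ranked 3 from the lowest of 323, Lmbr1 was lower (-0.15) and Rnf32 higher (0.20), giving 3 of 12, or 25%, beside 18.5%. The Lmbr1 interval held 0 without balancing and with gene bins alone, and that of Rnf32 with gene bins alone and scaled by the map total. In 1xBorCTCF the Mnx1 to En2 ratio to intraTAD2 was 0.16, with an interval of 0.0039 to 0.31 that barely excluded 0. It held 0 with gene bins alone (0.09, interval -0.11 to 0.29) and without the first Mnx1 bin (0.10, interval -0.07 to 0.26). The one other gene of Mnx1 that differed there was Rbm33 (-0.26), giving 2 of 12, or 16.7%, beside 18.1%, and for Nom1 it was also Rbm33 (-0.28), giving 1 of 12 beside 21.4%. Scaled by the map total, the Mnx1 to Rbm33 interval held 0 (-0.13, interval -0.30 to 0.04). Rbm33 was thus lower than in intraTAD2 with both members in all 3 genotypes, and intraTAD2 had the highest Rbm33 contact of the 6 maps for each member.

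The 2 BorCTCF genotypes share their embryo source and were also compared with each other, a comparison chosen after their values were seen. Mnx1 contact in 2xBorCTCF was lower than in 1xBorCTCF for En2 (log2 ratio -0.70, interval -0.94 to -0.45, the 9th lowest of 250 window pairs), for Shh (-0.58, interval -0.88 to -0.29) and for Cnpy1 (-0.53, interval -0.78 to -0.28). The single Mnx1 bins did not all differ alike. With En2 and against wild type all 4 bins were lower in 2xBorCTCF, with log2 ratios of -1.48, -1.13, -0.64 and -0.78 and intervals that excluded 0. Against intraTAD2 the En2 ratios were -1.20, -0.50, -0.46 (interval -0.96 to 0.03) and -0.30 (interval -0.73 to 0.13), so that the last pair of intervals held 0. Against 1xBorCTCF they were -1.59, -0.67, -0.49 and -0.41, and the last interval (-0.85 to 0.02) held 0. With Shh the first bin was the lowest of the 4 in 2xBorCTCF, at -1.54 to wild type, -1.19 to intraTAD2 and -1.30 to 1xBorCTCF. Against intraTAD2 and 1xBorCTCF it was the one bin whose Shh interval excluded 0, the other bins lying between -0.02 and -0.61 to intraTAD2 and between -0.35 and -0.48 to 1xBorCTCF. Without the first bin, left out after its value was seen, the En2 ratio of 2xBorCTCF was -0.86 to wild type, -0.43 to intraTAD2 and -0.53 to 1xBorCTCF, and none of these intervals held 0. For Shh the same 3 ratios were -0.59, -0.34 and -0.42, with the intraTAD2 interval reaching -0.02.

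Whether Mnx1 differed more than Nom1 was computed as the difference between their log2 ratios. For 2xBorCTCF against wild type this difference was -0.79 for En2 (interval -1.19 to -0.39), -0.57 for Shh (interval -0.98 to -0.15) and -0.50 for Cnpy1 (interval -0.83 to -0.17). For Rbm33 it was 0.37 (interval 0.10 to 0.65), Nom1 being the member with the lower ratio there. For i4CTCF against intraTAD2 the En2 difference was 0.37 (interval 0.04 to 0.71) and the Cnpy1 difference 0.35 (interval 0.08 to 0.62). The interval of the Mnx1 to Cnpy1 ratio behind the latter held 0 over bin pairs listed in all maps. For intraTAD2 against wild type the En2 difference was -0.04 (interval -0.32 to 0.24), so a like lowering at both members is within the interval, as is a difference of -0.32.

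The Shh domain, bounded in the wild-type map by the lowest insulation beside Shh and inside Lmbr1, ran from chr5:28440001-29355000. Of the balanced contact of Mnx1 at 20 kb or more, the En2 side of the domain took 22.9% in wild type, while intraTAD2 had 18.3%, intraTAD3 18.5%, i4CTCF 23.0%, 2xBorCTCF 15.4% and 1xBorCTCF 20.8%. The Shh domain, which is nearer, took less in every map but 2xBorCTCF, with 18.2%, 18.0%, 18.0%, 16.3%, 17.2% and 18.0% in the same order. In intraTAD2 the intervals of these 2 shares overlapped (17.9% to 18.8% and 17.5% to 18.5%), and so did those of intraTAD3. For Nom1 the En2 side took 17.1%, 15.2%, 14.7%, 16.3%, 13.8% and 15.9%, and the Shh domain more in every map, 19.3% to 20.9%. Per window and relative to distance, the En2 side gave Mnx1 1.61 in wild type and 1.27 in 2xBorCTCF (log2 ratio -0.34, interval -0.45 to -0.24), and 1.51 to 1.64 in the other 4 maps. Distances of 1000 kb or more made up 25.5% of Mnx1 contact in wild type and 16.8% in 2xBorCTCF, and 16.8% and 13.6% of that of Nom1.

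**Figure D5:**
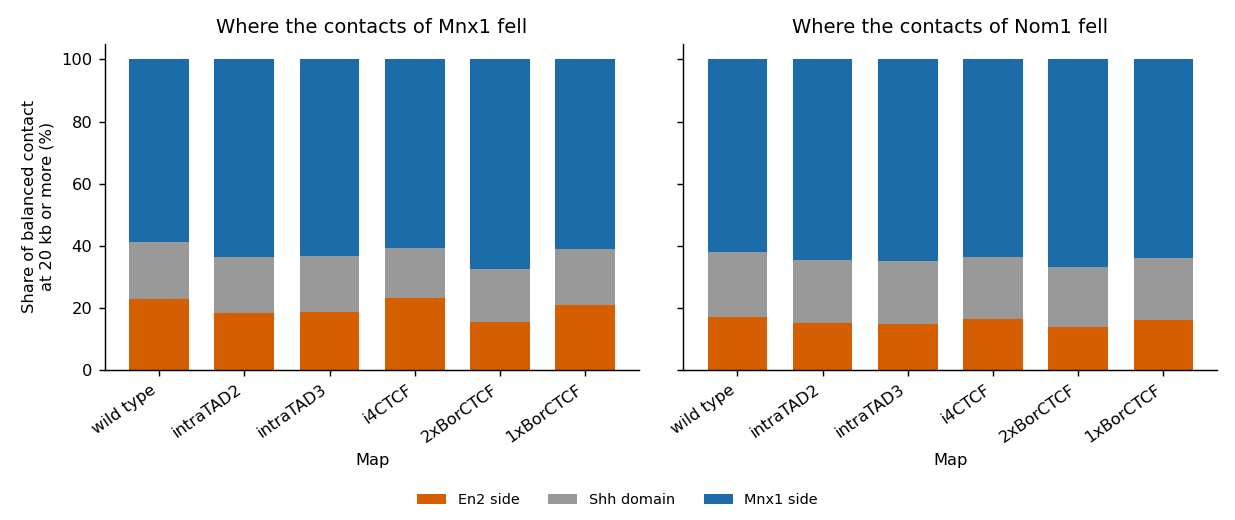
Share of balanced contact at 20 kb or more (vertical axis, %) of Mnx1 (left) and Nom1 (right) that lay on the En2 side, in the Shh domain and on the Mnx1 side, with 1 stacked bar per map (horizontal axis). The En2 side of the Mnx1 bars runs from 15.4% in 2xBorCTCF to 23.0% in i4CTCF, and that of the Nom1 bars from 13.8% in 2xBorCTCF to 17.1% in wild type.

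Over all tiled windows of 25 kb the members mostly differed between maps no more than other viewpoints of their width. Counting windows that differed 1.5-fold or more from wild type, Mnx1 had 11 of 107 in intraTAD2 (10.3% beside 10.2% for all such viewpoints), 11 of 107 in intraTAD3 (10.3% beside 10.4%), 15 of 104 in i4CTCF (14.4% beside 14.2%) and 11 of 107 in 1xBorCTCF (10.3% beside 12%). In 2xBorCTCF it had 22 of 103 (21.4% beside 16%), of which 15 were lower. Against intraTAD2, Mnx1 had 22 of 106 in i4CTCF (20.8% beside 12.2%), of which 18 were lower, 14 of 106 in 2xBorCTCF (13.2% beside 13.8%) and 7 of 108 in 1xBorCTCF (6.48% beside 9.36%). Nom1 had 1 to 8 of 108 against wild type, beside 5.6% for intraTAD2, 6.05% for intraTAD3, 8.8% for i4CTCF, 11.2% for 2xBorCTCF and 7.25% for 1xBorCTCF. Against intraTAD2 it had 6 in i4CTCF beside 7.17%, 8 in 2xBorCTCF beside 9.04% and 3 in 1xBorCTCF beside 4.68%. Of the 64 windows with the 2 highest and 2 lowest ratios in each comparison, 49 lay on the En2 side. That side spans 960 kb, beside 915 kb for the Shh domain and 915 kb for the Mnx1 side, and lies farthest from the members. The reason for its larger count was not tested. Of the 64 windows, 12 had under 10 contacts in 1 of the maps and 25 had intervals holding 0. Among the other 27 was the Mnx1 window over Htr5a, chr5:27830001-27855000, lower in 2xBorCTCF than in wild type by a log2 ratio of -1.23 (interval -2.15 to -0.30). It rested on 13 contacts in 2xBorCTCF and 49 in wild type. The listed Htr5a gene gave -0.43 with Mnx1 in the same maps (interval -1.23 to 0.38), which held 0. Windows were picked here for their extreme ratios, and the intervals do not allow for that choice. Another of the 27 was the Mnx1 window chr5:29080001-29105000 in the Shh domain, higher in 2xBorCTCF by 1.21 (interval 0.50 to 1.92). Wild type was the lowest map at this window, with 0.215 beside 0.309 (intraTAD2) to 0.496 (2xBorCTCF) in the mutant maps.

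The profiles most like that of Mnx1 across 25 kb windows were those of its neighbours. The median Spearman correlation over the 6 maps was 0.867 with Nom1 (101 windows), 0.828 with Ube3c (94 windows) and 0.632 with Dnajb6 (91 windows). For Nom1 the most alike were Ube3c with 0.891, Mnx1 with 0.867 and Hadha, which encodes a mitochondrial enzyme of fatty acid oxidation, with 0.708. These points share a map and neighbouring windows overlap in what they touch, so the correlations are descriptions. The order of the windows was alike while the height was not. Ube3c, on the far side of Mnx1 from En2, had an En2 contact of 0.940 to 1.11, Lmbr1 had 1.26 to 1.41 and Dnajb6 had 0.72 to 0.92, against 5.54 to 12.2 for Mnx1.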

How the data were processed

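Per the labels' protocols, DNA of formaldehyde-fixed limb buds was digested with DpnII, ligated and sheared, then enriched by SureSelect capture and read from both ends. The submitters' processing notes name Bowtie2 2.2.6, mm9 and mm10, without roles. File names give a mapping quality of 30 and Knight-Ruiz balancing by the authors. The deposited values are this balanced contact signal for pairs of 5 kb bins, for 5 samples and 1 column of no sample (wild type). For probe design and duplicate removal, the method is not given in the sources used here.

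Whole contacts were recovered from the balanced values (100% whole within 0.01), giving 1121373 to 2942790 contacts per map. Of 558 bins, 10 were dropped because their partners in at least 1 map numbered less than 25% of the median bin's. Listed bin pairs made up 72.0% to 88.1% of all. Gene positions (mm10) came from RefSeq GRCm38.p6, and 11 of 13 listed genes had an entry among its upstream sequences. Each value was divided by the mean at its distance, and windows were compared as log2 ratios. The 95% intervals of contacts and ratios came from a Poisson error of the recovered contacts. Those of shares were exact binomial intervals of the recovered contacts, without balancing weights, shifted to the balanced share. No ratio was given under 10 contacts in a map, nor for tiled windows under 20 contacts in both maps together. Backgrounds and ranks are all window pairs of the same sizes and separation with 75% or more of their bin pairs measured. They overlap, so they are not independent. Partner genes were taken by place, windows as the 5 highest per member and the 2 highest and lowest ratios per comparison, and like genes as the 3 highest correlations. The members and lists were chosen with earlier results of these data known. The scripts were tested on simulated data. Python 3.11.15, numpy 2.4.6, pandas 2.3.3, scipy 1.17.1 and matplotlib 3.10.9 were used.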

Additional observations from a re-analysis of the deposited data

How the results depend on the processing

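No paired analysis was possible because each genotype had 1 library, and for the same reason no library could be left out. Alternatives were contacts without balancing, gene bins alone or with 2 bins either side, partners at 50 kb or more, bin pairs listed in all maps, no filter on bins, an average smoothed over 9 distances, scaling by the map total, the median of the other maps in place of wild type, windows of 50 kb and a 2-fold limit. Each main result was counted once under each setting that applied to it. Of these pairs of result and setting, 184 kept the value within the counting interval (counts within 1.5 times), 48 moved beyond it and 2 turned in direction. A turn was counted only where the main interval excluded 0. Mnx1 to Shh in i4CTCF and 1xBorCTCF, whose intervals to wild type held 0, also changed sign, as given below. These are counted among the 48. The causes were not tested. Leaving out the first Mnx1 bin was added after the data were seen and turned no direction. Of 47 gene ratios beyond counting error, the interval came to hold 0 for 12 without balancing, 15 with gene bins alone, 3 with 2 bins either side, 11 over pairs listed in all maps, 8 scaled by the map total and 0 under the smoothed average, no bin filter or the 50 kb limit. Without the first Mnx1 bin it did so for 4 of 32, among them En2 in i4CTCF to wild type and in 1xBorCTCF to intraTAD2. The ratios of 2xBorCTCF to wild type for Mnx1 with En2, Shh and Cnpy1 were not among those lost.

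Scaled by the map total, the log2 ratio of Mnx1 to En2 contact was -0.72 (intraTAD2), -0.68 (intraTAD3), -0.036 in place of 0.19 (i4CTCF) and -1.32 (2xBorCTCF) to wild type, and 0.37 for 1xBorCTCF to intraTAD2. For Shh it was -0.56 (intraTAD3) and -0.23 in place of 0.030 (i4CTCF) to wild type, and 0.28 for 1xBorCTCF to intraTAD2, which was 0.36 without balancing. To the median of the other maps, Mnx1 to En2 was -0.16 (intraTAD2), -0.037 (intraTAD3), 0.48 (i4CTCF), -0.70 (2xBorCTCF) and 0.037 in place of -0.25 (1xBorCTCF). Mnx1 to Shh was 0.30 (i4CTCF) and 0.086 in place of -0.19 (1xBorCTCF). Nom1 to Ube3c in intraTAD3 turned to -0.023 without balancing.

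The log2 ratio of Mnx1 to Nom1 contact with En2 was 1.97 in wild type without balancing. With gene bins alone it was 2.60 (wild type), 2.44 (intraTAD2), 2.61 (intraTAD3) and 2.43 (1xBorCTCF), and with 2 bins either side 1.96, 1.82, 1.96, 1.86 in the same maps and 2.15 in i4CTCF. The median share of the En2 side moved from 19.7% to 20.7% for Mnx1 without balancing, 23.9% at 50 kb or more and 17.1% over pairs listed in all maps. For Nom1 it moved from 15.5% to 16.1%, 18.4% and 12.1% under those settings, 15.0% with gene bins alone and 16.0% with 2 bins either side.

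Windows past the fold, summed over comparisons with wild type, numbered 70 for Mnx1 and became 46 with 2 bins either side, 28 over pairs listed in all maps, 21 with windows of 50 kb and 17 at 2-fold. Those of Nom1 went from 29 to 11, 5 and 10 under the last 3 settings. Summed over comparisons with intraTAD2, Mnx1 went from 43 to 66 with gene bins alone, then 26, 21, 12 and 1 under the 4 settings, and Nom1 from 17 to 7, 8, 2 and 1.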
